A study of Mus musculus with 3 samples.

Results

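Large-vessel endothelial cells, the cells that line the arteries and veins of an organ rather than its capillaries, were examined in mouse liver after irreversible electroporation (IRE), an ablation by short electrical pulses that kills cells by permeabilizing their membranes. A cell barcode was taken as a large-vessel endothelial cell when it held at least 200 genes, at least 1 transcript of 2 or more of the vessel genes Vwf, Cldn5, Cd34 and Rspo3, at least 1 transcript of Pecam1, Cdh5 or Egfl7, and none of Dcn or Epcam. This rule found 70 of the 25263 barcodes with at least 200 genes, 33 in the control library, 37 in the library taken 1 day after IRE and 0 in the library taken 7 days after IRE. Because measured transcripts chose the cells, the levels of these 7 genes in them describe the choice and were not tested.

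The livers came from adult C57BL/6 mice, and every library pooled the tissue of 3 animals. Control mice had sham surgery and were sacrificed at day 1 per the labels, while IRE mice received 8 pulses of 50 ms at 1 s intervals, at 75 V per the labels (the study's methods name another voltage), and were sacrificed 1 day or 7 days post-injury (p.i.). A 4 mm punch of liver was digested with enzymes, red blood cells were lysed, and single cells were profiled by Drop-seq, in which each droplet labels the RNA of 1 cell with a barcode and each RNA molecule with a unique molecular identifier (UMI). There was 1 library per condition, so that condition and library cannot be told apart, no difference between conditions could be tested, and the 95% intervals given below cover counting error only. Levels are given as CPM, UMIs scaled to a common total over all genes of the same barcodes.

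Liver sinusoids are lined by a fenestrated, scavenging endothelium, whereas the portal vein, hepatic artery and central vein are lined by a continuous endothelium that stores von Willebrand factor (Vwf). Endothelium of the central vein and its neighbourhood releases the Wnt ligands Wnt2 and Wnt9b and the Wnt enhancer R-spondin 3 (Rspo3), which maintain the pericentral program of hepatocytes. Cldn5 is a tight junction protein and Cd34 a sialomucin of the endothelial surface, while Pecam1, Cdh5 and Egfl7 are carried by endothelium in general.

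To show the regulatory sequence in front of genes on which the results turn, 250 bases upstream of the transcription start are given for 4 genes from the RefSeq promoter table on GRCm38.p6, which matched 5 of the 9 genes looked up. Wnt9b and Bmp4 are secreted ligands that had more UMIs in large-vessel cells 1 day p.i., and Cd34 and Cldn5 are genes of the rule that in the control library shared 1 member each with Rspo3, and 3 and 5 members at 1 day. Capitals mark GGAA on either strand (TTCC on the strand shown), the core recognized by ETS factors, a family that holds endothelial regulators such as Erg. The Wnt9b stretch lies at chr11:103749822-103750071 and the Bmp4 stretch at chr14:46390670-46390919, both on the minus strand. The Cd34 stretch lies at chr1:194938571-194938820 and the Cldn5 stretch at chr16:18776597-18776846, both on the plus strand.
Wnt9b: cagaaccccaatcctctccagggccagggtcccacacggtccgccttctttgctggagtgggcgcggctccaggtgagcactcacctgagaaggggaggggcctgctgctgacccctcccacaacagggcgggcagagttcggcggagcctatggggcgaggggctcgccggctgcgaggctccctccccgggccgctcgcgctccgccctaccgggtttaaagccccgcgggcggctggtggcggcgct
Bmp4: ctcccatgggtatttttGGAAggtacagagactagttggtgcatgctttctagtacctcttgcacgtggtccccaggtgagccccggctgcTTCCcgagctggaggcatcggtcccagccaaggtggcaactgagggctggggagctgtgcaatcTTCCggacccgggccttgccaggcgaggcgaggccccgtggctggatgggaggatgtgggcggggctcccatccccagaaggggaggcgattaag
Cd34: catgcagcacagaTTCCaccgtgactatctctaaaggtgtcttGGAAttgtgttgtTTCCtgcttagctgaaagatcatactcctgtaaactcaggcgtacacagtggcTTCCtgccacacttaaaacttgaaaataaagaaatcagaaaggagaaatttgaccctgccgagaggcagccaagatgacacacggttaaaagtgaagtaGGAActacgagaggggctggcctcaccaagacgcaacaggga
Cldn5: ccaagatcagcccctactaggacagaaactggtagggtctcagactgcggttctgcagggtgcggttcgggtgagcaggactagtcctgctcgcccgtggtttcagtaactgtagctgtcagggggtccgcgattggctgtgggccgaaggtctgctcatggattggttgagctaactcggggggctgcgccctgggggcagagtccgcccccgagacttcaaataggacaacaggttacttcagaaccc
The Cd34 stretch held 5 matches and the Bmp4 stretch 3, whereas those of Wnt9b and Cldn5 held 0, and 93.4% of the 32851 promoters of the table held at least 1. A match describes letters only and was not read as a binding site.

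All 4 marker genes of the label are genes of the rule, so that their presence was fixed by the choice, and they show only which of them marked the cells. Vwf was found in 27 of 33 control members and 29 of 37 members 1 day p.i., and Pecam1 in 22 and 24. Cldn5 was found in only 8 and 9 members and Cd34 in only 11 and 5, so that neither marked most of them. Rspo3, which is not among the 4 markers but is in the rule, was found in 21 and 33 members, with 107 and 142 UMIs and up to 15 and 17 in a single cell. The commonest pair was Vwf with Rspo3, held by 19 control members (57.6%) and 26 members 1 day p.i. (70.3%), and the next in the control library, Vwf with Cd34, was held by 6. No cell held all 4 vessel genes, and 1 control member and 2 members 1 day p.i. held 3 of them. Pan-endothelial genes outside the rule took 1.76% and 1.55% of members' UMIs, against 0.0965% and 0.359% in leukocytes and 0.202% and 0.601% in free RNA. Leukocytes here were cells with at least 2 of Ptprc, Coro1a, Lcp1 and Laptm5 and no UMI of Pecam1, Cdh5, Egfl7, Vwf or Cldn5. Their low endothelial share was thus in part fixed by the choice.

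**Figure D1:**
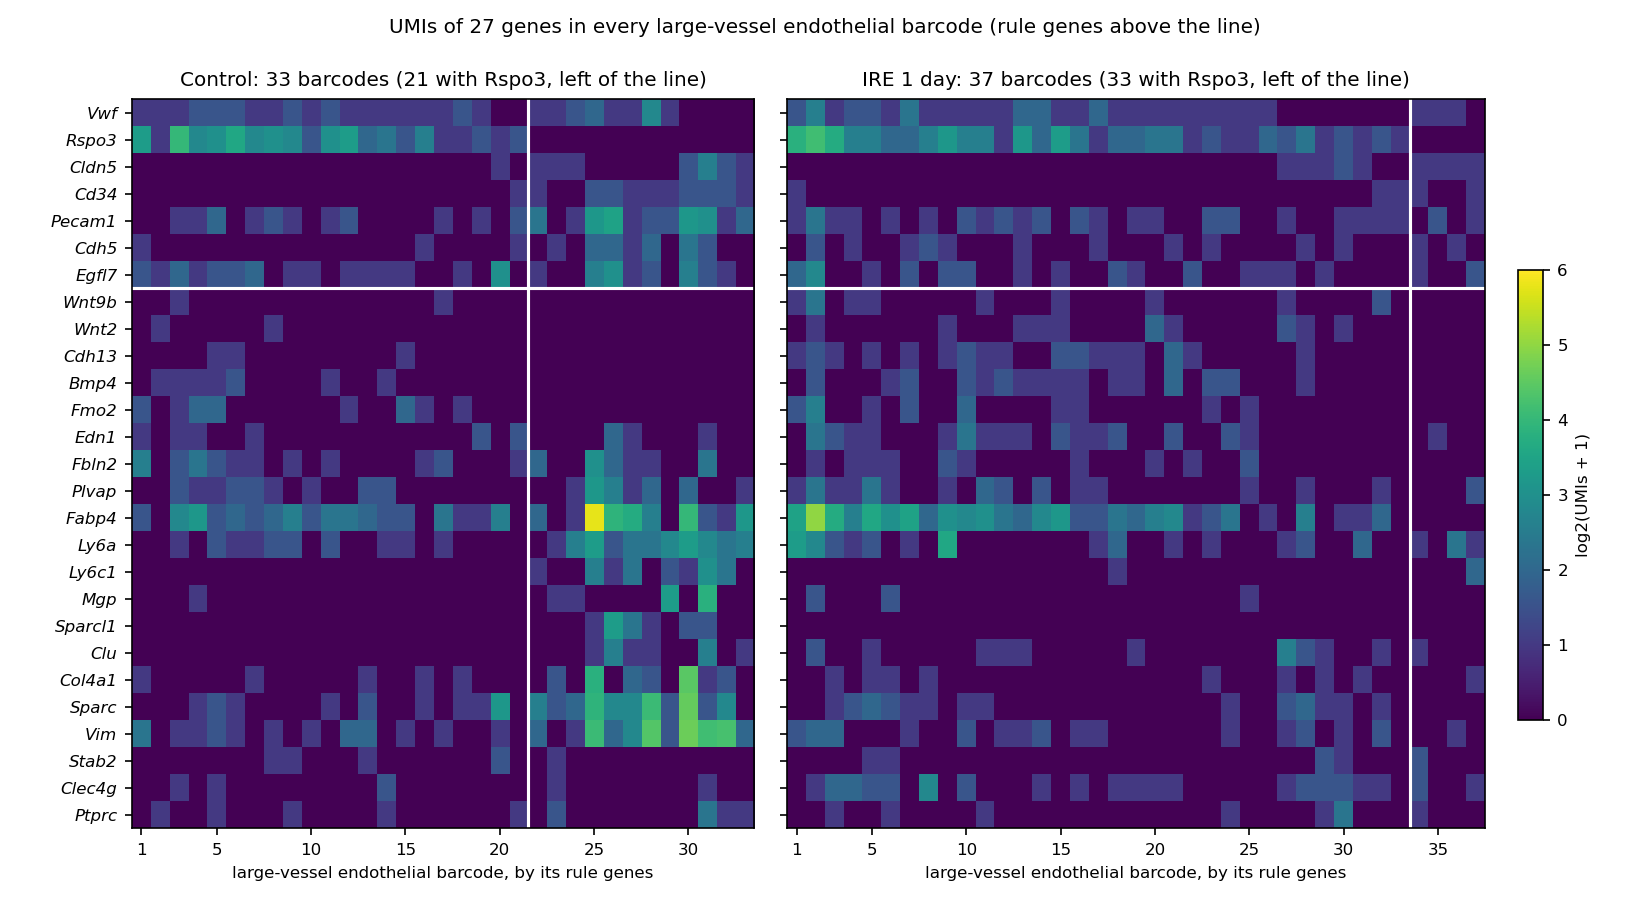
UMIs of 27 genes (rows) in each of the 33 control and 37 day 1 members (columns), with colour giving log2(UMIs + 1) and a line setting members with Rspo3 apart from those without. Rspo3 was present in 21 of 33 control and 33 of 37 day 1 members. Ly6c1, Mgp and Sparcl1 had 25, 24 and 19 UMIs in control members without Rspo3 and at most 1 in those with it. Of the Mgp UMIs, 13 and 9 lay in 1 barcode each.

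Several features of the barcodes touch every result below. Members were deep for their libraries, with a median of 1056 UMIs (271 to 4174) in the control and 994 (276 to 3235) 1 day p.i., against medians of 595 and 509 over all cells, and a rule that asks for several transcripts favours deep barcodes. Mitochondrial transcripts made up 13.5% of their UMIs in both libraries. A UMI of a leukocyte gate gene (Ptprc, Coro1a, Lcp1 or Laptm5) was found in 17 of 33 and 15 of 37 members. A UMI of a sinusoidal gate gene (Stab2, Clec4g, Gpr182 or Oit3) was found in 10 of 33 and 26 of 37. At least 2 of these genes, part of the mark used for sinusoidal cells below, were held by 3 and 12 members (9.09% and 32.4%). The sinusoidal signal in members was thus larger at 1 day. In addition, doublets were not called, and 3 members of each library had a barcode sequence that another library also held. Outside the members, barcodes with under 200 genes gave a level called free RNA here, which may include small cells: albumin (Alb) stood there at 348 CPM in the control and 7503 CPM 1 day p.i., and the neutrophil gene S100a8 at 4456 and 347 CPM. Members fewer in number and members with less RNA each cannot be told apart.

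Members made up 0.318% (exact interval, 0.219 to 0.446) of control cells and 0.4% (0.282 to 0.551) of cells 1 day p.i., so that the intervals overlapped. At 7 days p.i. there were 0 members among 5624 cells, for which the exact interval allows a share of up to 0.0656%, below the intervals of both other libraries. The day 7 library was poor in endothelium of all kinds. Only 21 of its cells were taken as sinusoidal endothelial cells, against 434 control cells and 879 cells 1 day p.i. Sinusoidal cells here held at least 2 of Stab2, Clec4g, Gpr182 and Oit3, at least 1 of Pecam1, Cdh5 and Egfl7, and no Dcn or Epcam. Cells that met the large-vessel rule were left out of them, so that members with sinusoidal gate genes counted as large-vessel only. Set against endothelial cells of both kinds, members were 7.07% (4.91 to 9.78) of 467 in the control and 4.04% (2.86 to 5.52) of 916 at 1 day, whereas 0 of 21 at 7 days allows up to 16.1%. At its depth a lower share among endothelial cells was not detectable at 7 days. The lower share among all cells was also not shown at equal depth. The rule was applied after thinning each barcode to 300 UMIs, with shallower barcodes left out, a setting chosen after seeing the data. The shares were then 0.0491% (0.016 to 0.115) in the control and 0.067% (0.0246 to 0.146) at 1 day. Both intervals held the day 7 limit of 0.0656%, which was itself taken without thinning.

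The vessel genes were not at 0 in the day 7 library. Vwf was found in 10 of its cells, Rspo3 in 11, Cldn5 in 16 and Cd34 in 4, against 74, 152, 107 and 125 control cells and 155, 405, 273 and 58 cells 1 day p.i. Pecam1 was found in 107 cells of the day 7 library, against 602 in the control and 949 1 day p.i. At 7 days 15 cells held a single vessel gene and otherwise met the rule. No level in members could therefore be given for 7 days p.i., and the results that follow compare the control with 1 day.

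Cells just inside the rule, with exactly 2 vessel genes, numbered 32 in the control and 35 at 1 day, and cells just outside it, with exactly 1, numbered 131 and 334. Inside, venous and pericentral genes took 0.67% and 0.676% of UMIs and sinusoidal genes 0.423% and 0.746%. Outside, venous and pericentral genes took 0.344% and 0.232% and sinusoidal genes 1.18% and 1.13%. Cells just outside were also shallower, with medians of 710 and 671 UMIs against 1073.5 and 994 inside.

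The members were not of 1 kind. The division into members with and without Rspo3 was made after the values were seen, and follows a gene of the rule, so that it is a description. In the control library 21 members held Rspo3 (17842 UMIs in all) and 12 did not (25469 UMIs), and at 1 day 33 did and 4 did not, which makes 63.6% (45.1 to 79.6) and 89.2% (74.6 to 97) of members with Rspo3. Control members without Rspo3 were the deeper cells, with a median of 1934 UMIs against 823.

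Control members without Rspo3 carried a set of surface and matrix genes that those with Rspo3 all but lacked. Ly6c1, a surface antigen of arterial and capillary endothelium, had 25 UMIs in the 12 members without Rspo3 and 0 in the 21 with it. Mgp, a matrix inhibitor of calcification and BMP signaling, had 24 and 1, but 13 and 9 of these UMIs lay in 1 barcode each. Sparcl1, a matricellular protein, had 19 and 0, with 9 in 1 barcode. Cav1, the coat protein of caveolae, had 15 and 1, and Aplnr, the apelin receptor, 13 and 1. Cd34 (15 and 1 UMIs) and Cldn5 (13 and 1) were divided in the same way, but the rule in part fixed this. Any member without Rspo3 had to hold Cd34 or Cldn5, whereas a member with Rspo3 could enter with Vwf alone beside it. That the genes above were found in cells with Cd34 or Cldn5 thus followed from the division and was not a separate result. The type IV collagen gene Col4a1 had 44 and 5 UMIs, Vim 113 and 20, and Sparc 85 and 18, and Ctla2a, which encodes a cysteine protease inhibitor, 60 and 5 with 45 of its UMIs in 1 barcode.

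Control members with Rspo3 had the opposite set. Fmo2, a flavin monooxygenase, had 15 UMIs in them and 0 in members without Rspo3, Bmp4, a secreted morphogen, 8 and 0, and the cytochrome P450 gene Cyp1b1 7 and 0. Wnt2 and Wnt9b each had 2 UMIs in the members with Rspo3 and 0 in those without. The phosphatase gene Ptprb, a regulator of Tie2 signaling, was higher in members with Rspo3, at 4316 against 2120 CPM (ratio 2.04, interval 1.42 to 2.94). Basement membrane and vessel wall matrix genes together took 0.549% of UMIs in members with Rspo3 and 1.29% in members without it (ratio 0.427, 0.337 to 0.536), whereas venous and pericentral genes took 0.695% and 0.648%. Macrophage genes took 0.235% and 0.573% and mitochondrial transcripts 19.7% and 9.1%; their part in these differences was not tested.

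Large-vessel cells were next set beside sinusoidal endothelial cells of the same library. Both groups were chosen by their transcripts, so that genes near the rule in function had to differ and the ratios are descriptions. In the control library 3346 genes had at least 20 UMIs in the groups together. Of these, 358 genes (10.7%) were at least 2-fold higher in large-vessel cells and 514 (15.4%) at least 2-fold lower, and for 370 genes the counting interval left out a ratio of 1. At 1 day p.i., 606 of 5806 genes (10.4%) were higher and 578 (9.96%) lower.

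Outside the genes of the rule, the genes highest in large-vessel over sinusoidal cells of the control library included genes of the vessel wall and the continuous endothelium. Ly6c1 had 25 UMIs in the 33 large-vessel cells and 2 in the 434 sinusoidal cells (ratio 108). Fibulin 2 (Fbln2), a matrix protein of vessel walls, had 40 and 6 UMIs (924 against 16 CPM, ratio 57.8, interval 24.4 to 167). Sparcl1 had 19 and 5 UMIs (33-fold), Cav1 16 and 5 (27.8-fold) and Mgp 25 and 13 (16.7-fold). Of the large-vessel UMIs, 9 of Sparcl1 came from 1 barcode, and 13 and 9 of Mgp from 1 barcode each. Plvap, the diaphragm protein of caveolae and fenestrae, had 36 and 25 UMIs (12.5-fold), and Ehd4, an endocytic trafficking protein, 51 and 43 (10.3-fold). Palmd (34.7-fold) and Ablim1 (20.2-fold) were also among the 10 highest. In leukocytes of the same library Fbln2 stood at 23.3 CPM and Ly6c1 at 14.6 CPM, and in free RNA at 19.8 and 12.9 CPM, so that the large-vessel levels of 924 and 577 CPM lay well above both.

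The genes lowest in large-vessel cells included several of the scavenging sinusoid. Fcgrt, the neonatal Fc receptor, had 1 UMI in large-vessel and 156 in sinusoidal cells (ratio 0.0556). Bmp2, the sinusoidal signal for hepatocyte iron sensing, had 3 and 385 UMIs (ratio 0.0676), and the chemokine gene Cxcl9 3 and 374 (ratio 0.0696). Lyve1, the hyaluronan receptor, had 5 and 473 UMIs (ratio 0.0917). Of the 22 sinusoidal endothelial genes, 21 could be compared in the control library, and 19 of those were at least 2-fold lower in large-vessel cells, with a median log2 ratio of -2.40 against 0.00 over all genes. At 1 day 14 of 21 were lower (median -1.29), and together they took 1.62% of UMIs in sinusoidal cells and 0.727% in large-vessel cells. The list holds the 4 sinusoidal gate genes, Stab2, Clec4g, Gpr182 and Oit3, by which the sinusoidal cells were chosen. All 4 were at least 2-fold lower in both libraries, so that these counts, medians and shares in part describe the choice.

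**Figure D2:**
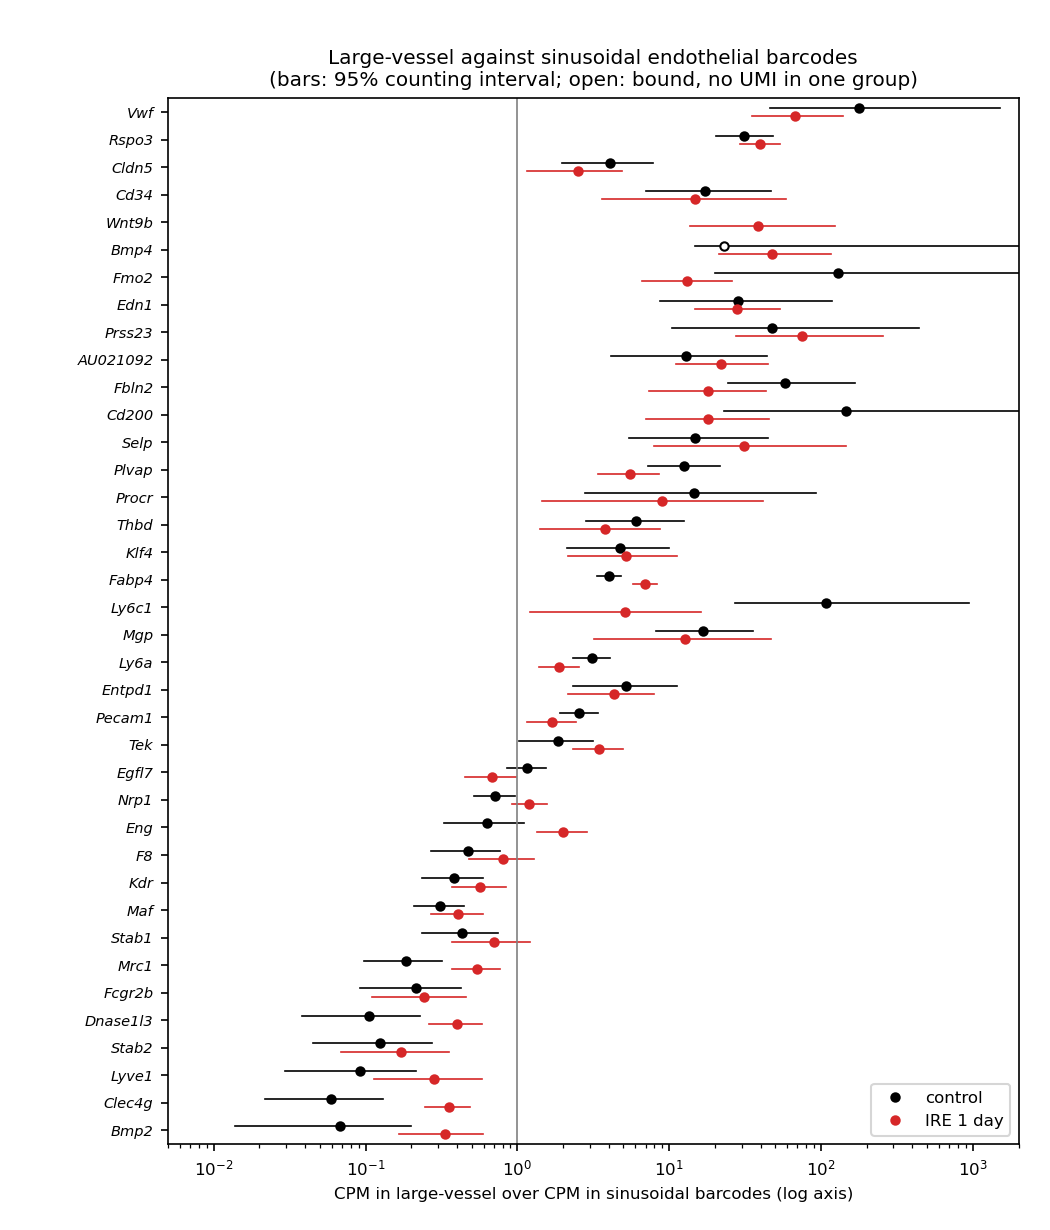
Ratio of large-vessel to sinusoidal endothelial cells (log axis) for genes of the rule, of the lists and of the named differences, control in black and 1 day in red, with 95% counting intervals as bars and an open point for a bound. Fbln2, Edn1 and Prss23 lie above 10 in both libraries, and Lyve1, Stab2 (a sinusoidal gate gene) and Bmp2 lie below 0.5.

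Genes of vascular zonation took a larger share of UMIs in large-vessel than in sinusoidal cells of both libraries, with only some genes of each list past 2-fold. Venous and pericentral genes together took 0.667% of UMIs in large-vessel cells and 0.209% in sinusoidal cells of the control (ratio 3.19, 2.78 to 3.66), and 0.651% and 0.144% 1 day p.i. (ratio 4.53, 3.97 to 5.17). Of their comparable genes, 4 of 9 were at least 2-fold higher and 2 lower in the control, and 5 of 12 were higher and 1 lower at 1 day. Without Fabp4, the most abundant of them, the ratios were 2.43 (1.96 to 2.99) and 3 (2.44 to 3.66). Bmp4 had 8 UMIs in large-vessel and 0 in sinusoidal cells of the control, at least 23.1-fold higher against a floor of 3 counts, and 24 and 9 at 1 day (ratio 47.7, 21.4 to 117). Wnt9b was concentrated in large-vessel cells, with 13 UMIs in 37 cells against 6 in 879 sinusoidal cells at 1 day (ratio 38.7, 13.7 to 124). Wnt2, by contrast, was shared, at 46.2 and 98.5 CPM in the control and 297 and 123 CPM at 1 day. Arterial and portal genes took 0.642% against 0.282% in the control (ratio 2.28, 1.99 to 2.6) and 0.478% against 0.295% at 1 day (ratio 1.62, 1.4 to 1.87), with 4 of 9 genes higher and 1 lower in the control and 2 of 11 higher at 1 day, where the median log2 ratio was 0.00. Edn1, which encodes the vasoconstrictor endothelin 1, had 13 and 4 UMIs in the control (ratio 28.2) and 28 and 18 at 1 day (ratio 27.8). The gap junction gene Gja5 and the transcription factor gene Sox17, both typical of arteries, had 5 UMIs each in control members and 0 at 1 day, too few to compare. Prss23, a serine protease gene, was the highest of the genes outside the rule 1 day p.i., with 21 and 5 UMIs (ratio 75.1, 27.5 to 255).

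Genes of flow sensing, a group described for conduit vessels, were higher too, though this list overlaps the others. It holds Thbd, which is in the venous and coagulation lists, and Edn1, which is in the arterial list. Flow-responsive genes took 0.173% of UMIs in large-vessel and 0.0575% in sinusoidal cells of the control (ratio 3.01, 2.28 to 3.93) and stood at a ratio of 3.26 (2.54 to 4.14) at 1 day, with 3 of 5 and 3 of 6 comparable genes at least 2-fold higher. Coagulation and thrombosis genes stood at ratios of 1.62 (1.31 to 2) and 2.07 (1.69 to 2.5), but without Vwf, a gene of the rule, at 1 (0.766 to 1.3) and 1.28 (0.991 to 1.63). In the control 3 of 6 comparable coagulation genes were at least 2-fold higher and 2 lower. Pan-endothelial genes outside the rule were closer, at 1.31 (1.21 to 1.41) and 1.45 (1.34 to 1.57). Lymphatic endothelial genes had 2 UMIs in control members and 1 at 1 day, and mural cell genes 5 and 4, so that both were near 0. Antigen presentation genes took 1.4% of UMIs in large-vessel and 1.29% in sinusoidal control cells (ratio 1.09, 0.998 to 1.18). Leukocyte adhesion and activation genes stood at a ratio of 1.12 (0.917 to 1.37).

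The response to IRE was described by comparing the 37 members 1 day p.i. with the 33 control members. Of 653 genes with at least 20 UMIs in the 2 groups together, 75 (11.5%) were at least 2-fold higher at 1 day and 73 (11.2%) at least 2-fold lower, with a median log2 ratio of -0.02. For 138 genes the counting interval left out a ratio of 1. Cdh13, Bmp4, Wnt2 and Wnt9b were higher, matrix and activation genes were lower, and hepatocyte genes were higher in members as in the rest of the library.

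Of the venous and pericentral genes, Cdh13, Wnt2, Wnt9b and Bmp4 had more UMIs 1 day p.i., while the list as a whole was level (ratio 0.976). Cdh13 (T-cadherin), an adhesion molecule and adiponectin receptor, had 3 UMIs in 3 control members and 23 UMIs in 17 members 1 day p.i. (69.3 and 525 CPM, ratio 7.59, interval 2.29 to 39.5). Its level in sinusoidal cells was 37.3 and 58.8 CPM and in free RNA 10.9 and 37.1 CPM, in each library below its level in members. In the control, however, the counting interval of Cdh13 in members (14.3 to 202 CPM) held the sinusoidal level. Wnt2 and Wnt9b each had 2 UMIs in 2 control members and 13 UMIs in 10 and 9 members at 1 day (ratio 6.43 for each, interval 1.46 to 58.7). Wnt9b stood at 7.33 CPM in free RNA at 1 day, against 297 CPM in members. Bmp4 had 8 and 24 UMIs in 7 and 16 members (185 and 548 CPM, ratio 2.97, 1.29 to 7.64). Among members with Rspo3 the ratios were lower, 3.43 (1.04 to 17.9) for Cdh13, 2.91 (0.659 to 26.6) for Wnt2 and for Wnt9b and 1.34 (0.584 to 3.46) for Bmp4, so that for all of these but Cdh13 the interval held 1. Other venous genes had fewer UMIs, such as Nr2f2, a transcription factor of venous identity, with 13 and 4, and Thbd (thrombomodulin) with 14 and 7.

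Further list genes past 2-fold higher encoded a vasoconstrictor, receptors and an interferon-induced protein. Edn1 had 13 and 28 UMIs (ratio 2.13, 1.07 to 4.48) and a ratio of 1.51 (0.668 to 3.85) among members with Rspo3. Tek, the Tie2 receptor for angiopoietins, had 17 and 35 UMIs (ratio 2.04, 1.11 to 3.88), and Eng, the TGF-β co-receptor endoglin, 13 and 32 (ratio 2.44, 1.24 to 5.06), whereas in sinusoidal cells Eng stood at a ratio of 0.767 (0.634 to 0.93). Among members with Rspo3 the ratios were 1.57 (0.76 to 3.55) for Tek and 1.59 (0.743 to 3.79) for Eng, so that these intervals held 1. Of other receptors, Calcrl had 17 and 17 UMIs, Ednrb 7 and 2 and Aplnr 14 and 0, while the VEGF receptor gene Kdr, given below, had more at 1 day. Gpihbp1, which anchors lipoprotein lipase at the endothelial surface, had 9 and 31 UMIs (ratio 3.41, 1.58 to 8.14) and stood at 162 and 377 CPM in free RNA. Ifitm2, an interferon-induced membrane protein, had 11 and 39 UMIs (ratio 3.51, 1.76 to 7.6). Pcbp2, an RNA-binding protein, had 4 and 23 UMIs (ratio 5.69, 1.94 to 22.6) and Arhgdib 3 and 17 (ratio 5.61, 1.62 to 29.9), and in free RNA Arhgdib stood at 263 and 203 CPM.

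Matrix genes of the vessel wall were lower. Together they took 0.984% of members' UMIs in the control and 0.498% at 1 day (ratio 0.506, 0.428 to 0.598), and of 7 comparable genes 0 were 2-fold higher and 4 were 2-fold lower, with a median log2 ratio of -2.31. Sparc, a collagen-binding matricellular protein, had 103 UMIs in 20 members and 21 UMIs in 14 members (2378 and 480 CPM, ratio 0.202, 0.12 to 0.325). Col4a1 had 49 and 9 UMIs (ratio 0.182, 0.0785 to 0.374), of which 21 control UMIs came from 1 barcode, and its partner chain Col4a2 had 20 and 2 (ratio 0.099). Sparcl1 had 19 and 0, and Mgp 25 and 5, with 13 and 9 of the control UMIs of Mgp in 1 barcode each. In contrast, Igfbp7, a secreted vascular protein, had 97 and 99 UMIs, and Timp3, a metalloproteinase inhibitor, 38 and 37. Vim, the intermediate filament of mesenchymal and endothelial cells, had 133 and 25 UMIs (3071 and 571 CPM, ratio 0.186, 0.116 to 0.287). It was the single endothelial to mesenchymal gene that could be compared. That list was lower at 1 day throughout the library, not in members alone. It went from 0.367% to 0.0914% of UMIs in members and from 0.4% to 0.0839% over all cells. In leukocytes it went from 0.294% to 0.092%, in sinusoidal cells from 0.137% to 0.0835% and in free RNA from 0.165% to 0.0726%.

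The matrix difference was not found among members with Rspo3. Among members with Rspo3, matrix genes took 0.549% of UMIs in the control and 0.515% 1 day p.i. (ratio 0.937, 0.733 to 1.2). In the same cells Col4a1 had 5 and 8 UMIs (ratio 0.717, 0.207 to 2.78), Sparc 18 and 21 (ratio 0.522, 0.265 to 1.04), Vim 20 and 24 (ratio 0.537, 0.284 to 1.03), and Mgp 1 and 5. The endothelial to mesenchymal list, which holds Vim, was lower in these cells, with 28 and 35 UMIs (ratio 0.56, 0.331 to 0.955). Among the members without Rspo3, 12 in the control and 4 at 1 day, matrix genes took 1.29% and 0.331%, with 13 UMIs in all at 1 day. The lower matrix level over all members thus went with the smaller number of members without Rspo3 and with a lower level in the 4 found at 1 day, and the part of each was not tested. Ly6c1, at 25 and 4 UMIs over all members (ratio 0.158, 0.04 to 0.459), had 0 and 1 among those with Rspo3.

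Fbln2 and the list of activation genes were lower with and without that division. Fbln2 had 40 and 12 UMIs over all members (924 and 274 CPM, ratio 0.297, 0.142 to 0.577) and 21 and 12 among members with Rspo3 (ratio 0.256, 0.115 to 0.545), and stood at a ratio of 0.96 (0.334 to 3.12) in sinusoidal cells. Leukocyte adhesion and endothelial activation genes took 0.266% of members' UMIs in the control and 0.121% at 1 day (ratio 0.456, 0.323 to 0.637), and 0.275% and 0.123% among members with Rspo3 (ratio 0.448, 0.295 to 0.679). In sinusoidal cells the same list went from 0.236% to 0.123%, also a decrease. The genes of this list that could be compared were Lrg1, a secreted modulator of TGF-β signaling, at 27 and 8 UMIs (ratio 0.293), and Nfkbia, the inhibitor of NF-κB, at 43 and 17 (ratio 0.391). Among members with Rspo3 their ratios were 0.358 (0.123 to 1.01) and 0.448 (0.204 to 0.983), so that the interval of Lrg1 held 1. The adhesion genes themselves were sparse: Selp (P-selectin) had 12 and 7 UMIs, Vcam1 10 and 6 and Icam1 6 and 9. Iigp1, an interferon-induced GTPase, had 39 and 10 UMIs (ratio 0.254, 0.113 to 0.518) and was lower in sinusoidal cells too (ratio 0.406, 0.344 to 0.479).

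**Figure D3:**
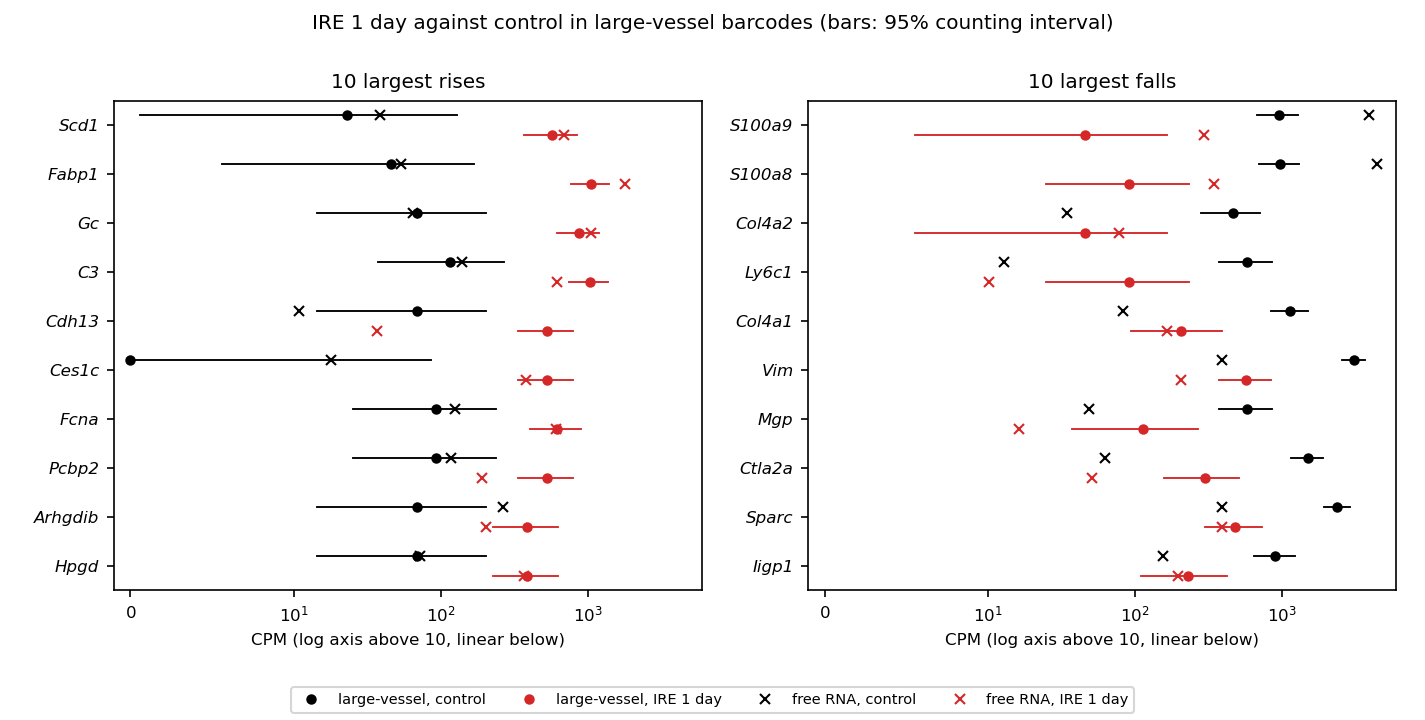
Levels (CPM, log axis above 10 and linear below) of the 10 genes with the largest increase and the 10 with the largest decrease from control (black) to 1 day (red) in members, as points with exact 95% Poisson intervals, and in free RNA, as crosses. For Scd1, Fabp1, Gc and Ces1c the crosses shift with the points, whereas for Cdh13, Vim and Sparc the points lie apart and above the crosses.

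Among the genes of the rule, which describe the choice of members, Vwf had 41 and 45 UMIs (ratio 1.09) and Rspo3 107 and 142 (ratio 1.31). Cldn5 had 14 and 10 UMIs and Cd34 16 and 5 (ratio 0.309). The endothelial genes of the rule were lower, with 63 and 34 UMIs of Pecam1 (ratio 0.534), 20 and 15 of Cdh5 and 52 and 30 of Egfl7 (ratio 0.571). Fabp4, the fatty acid carrier of venous and capillary endothelium, was the most abundant venous gene, with 174 and 170 UMIs in 28 and 29 members (ratio 0.967), 54 of the control UMIs in 1 barcode. Venous and pericentral genes as a list were near level (0.667% and 0.651%, ratio 0.976, 0.826 to 1.15), with 2 of 5 comparable genes higher and 2 lower.

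Of the gene lists, hepatocyte genes differed most. Hepatocyte genes took 0.0716% of members' UMIs in the control and 2.54% 1 day p.i. (ratio 35.5, 24.9 to 52.5), with 13 of 13 comparable genes at least 2-fold higher. Alb had 2 UMIs in 2 control members and 414 UMIs in 36 of 37 members at 1 day, 264 of them in 1 barcode. The same list went from 0.0865% to 4.24% in sinusoidal cells, from 0.319% to 3.64% in leukocytes and from 0.146% to 2.78% in free RNA, so that its share in members at 1 day was no larger than in free RNA. Scd1 (1 and 25 UMIs), Fabp1 (2 and 46), Gc (3 and 38), C3 (5 and 45) and Ces1c (0 and 23, at least 7.59-fold higher), genes that hepatocytes express strongly, were among the 10 largest increases. Of the UMIs at 1 day, 19 of Gc, 22 of C3 and 16 of Ces1c came from 1 barcode each. In free RNA each of them was higher at 1 day as well, as for Fabp1 at 53.5 and 1777 CPM. The part of free RNA in these values was not tested.

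Neutrophil and sinusoidal genes likewise differed in the same direction in members and in free RNA. Neutrophil genes took 0.217% and 0.0206% of members' UMIs and 1% and 0.0848% of free RNA, and S100a8 had 42 and 4 UMIs and S100a9 41 and 2 in members, with 21 and 29 of the control UMIs in 1 barcode each. Sinusoidal genes took 0.418% and 0.727% of members' UMIs (ratio 1.74, 1.44 to 2.1), with 5 of 9 comparable genes at least 2-fold higher. They also went from 0.36% to 0.662% in leukocytes and from 0.281% to 0.758% in free RNA. Clec4g, a sinusoidal lectin, had 6 and 37 UMIs in members and stood at 219 and 720 CPM in free RNA, while Stab2, a sinusoidal scavenger receptor, had 6 and 7 UMIs. Fcna (4 and 27 UMIs, 13 of them in 1 barcode) and Hpgd (3 and 17, with 8 in 1 barcode) were likewise higher in free RNA at 1 day, at 606 against 125 CPM and 366 against 72.3 CPM. Among the lists of other cells, only erythroid, B cell and plasmacytoid dendritic cell genes went opposite ways in members and free RNA. Erythroid genes took 0.00693% and 0.0366% of members' UMIs (3 and 16 UMIs) but 0.0204% and 0.011% of free RNA. B cell genes took 0.0208% and 0.0297% (9 and 13 UMIs, ratio 1.43, 0.565 to 3.79) against 0.114% and 0.0679%. Plasmacytoid dendritic cell genes took 0.127% and 0.0822% (ratio 0.648, 0.413 to 1) against 0.0563% and 0.0683%. The remaining lists, such as macrophage genes (0.434% and 0.541% against 0.485% and 0.665%), went the same way in both. Apoe, which hepatocytes and macrophages secrete, had 173 and 389 UMIs in members and stood at 4564 and 7988 CPM in free RNA.

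**Figure D4:**
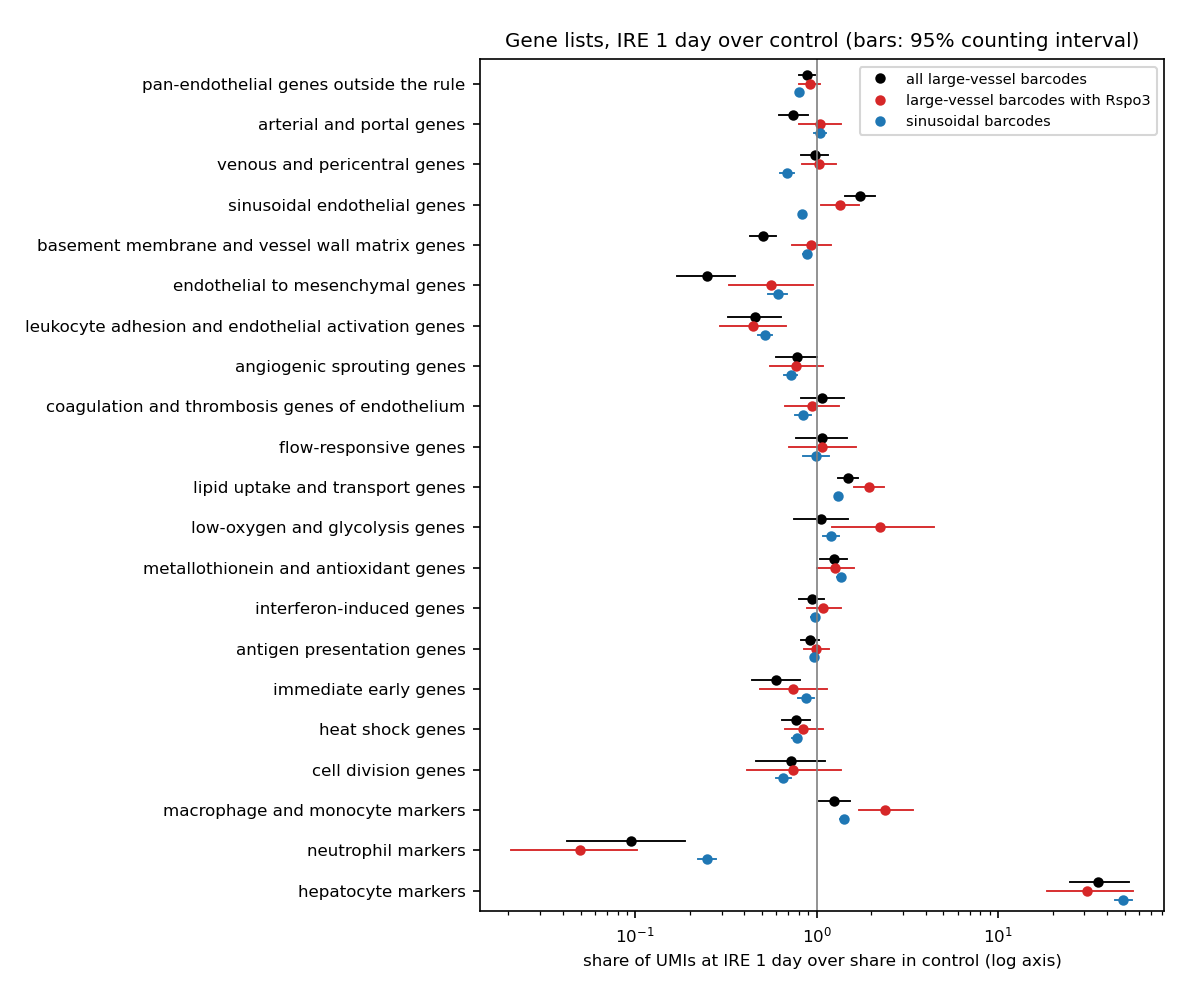
Ratio of 1 day to control members in the share of UMIs taken by each gene list (log axis), with 95% counting intervals, for all members (black), members with Rspo3 (red) and sinusoidal cells (blue). In all members hepatocyte genes stand at 35.5, sinusoidal genes at 1.74, matrix genes at 0.506 and neutrophil genes at 0.0947, whereas venous and pericentral genes stand at 0.976.

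Further gene groups had ratios between 0.599 and 1.49. Angiogenic sprouting genes stood at a ratio of 0.776 (0.598 to 1), with 0 of 3 comparable genes past 2-fold. Of these, Flt1 and Kdr, the VEGF receptors, had 37 and 32 and 21 and 26 UMIs, and Plvap 36 and 27, while Aplnr had 14 and 0. Flow-responsive genes stood at 1.07 (0.771 to 1.48), coagulation genes at 1.07 (0.818 to 1.41) and glycolysis genes at 1.06 (0.754 to 1.5). Interferon-induced genes stood at 0.941 (0.804 to 1.1) and antigen presentation genes at 0.92 (0.819 to 1.03). Immediate early genes were at 0.599 (0.438 to 0.815) and heat shock genes at 0.773 (0.646 to 0.924), and both groups also respond to tissue dissociation. Metallothionein and antioxidant genes stood at 1.25 (1.05 to 1.48). Lipid uptake and transport genes stood at 1.49 (1.31 to 1.69), with Gpihbp1 and Apoe past 2-fold, but without Apoe they stood at 0.969 (0.807 to 1.16). Cell division genes had 52 and 38 UMIs in all (ratio 0.723, 0.463 to 1.12), so that a difference in proliferation was not detectable at this depth.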

How the data were processed

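Drop-seq libraries of digested mouse liver were compared, 1 each for control, IRE 1 day and IRE 7 days, so that none had a replicate. The authors deposited raw UMI counts per gene and barcode, made with the Drop-seq tools on sense reads of coding sequence and UTRs. The submitters' processing notes name STAR 2.5.2a and the build hg19, although the rows are mouse symbols, so that the build was not taken from them. From the 15704, 18161 and 12466 deposited barcodes (10032574, 8563287 and 4580021 UMIs), those with at least 200 genes were kept. The members and gene lists were chosen with earlier results of these data known.

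UMIs of members were summed per library and given as CPM. Intervals at 95% were exact Poisson for a level, Clopper-Pearson for a share and conditional binomial for a ratio, and covered counting error only. Genes with at least 20 UMIs in both groups together were compared, a ratio of at least 2 or at most 0.5 was counted, and a 0 was set to 3 counts. Named were the rule genes, the 10 largest differences each way whose interval left out 1, with hepatocyte and mitochondrial genes apart, and genes of the lists. Genes of the Rspo3 division, Wnt2, Wnt9b, Prss23 and other genes with few UMIs were named after their values were seen. Leaving Vwf, Apoe or Fabp4 out of a list was likewise chosen after seeing the data. A gene that met this naming rule is not reported here. Doublets were not called. Scripts used Python 3.11.15, numpy 2.4.6, scipy 1.17.1 and matplotlib 3.10.9 and were tested on simulated data.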

Additional observations from a re-analysis of the deposited data

Results flagged for a closer look

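Ccdc80, which encodes a secreted matrix-binding protein, differed in direction between large-vessel and sinusoidal endothelial cells. Of 646 genes compared in both kinds, only Ccdc80 was past 2-fold in opposite directions with both counting intervals leaving out 1. In large-vessel cells it had 5 UMIs in the control and 19 at 1 day (ratio 3.76, 95% counting interval 1.36 to 12.9), whereas in sinusoidal cells it had 139 and 142 UMIs (ratio 0.491, 0.386 to 0.624). With 1 library per condition, the difference between these ratios was not tested.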

How the results depend on the processing

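No paired analysis was possible because each condition had 1 library. Over the alternatives, 39 of 67 values of shares and gene counts stayed near the reported ones, as did 1052 of 1321 values of named genes and 1049 of 1311 of lists, and the day 7 share stayed at 0 in each. These 67 values include the day 7 shares. Only the setting with no minimum of genes could have raised them, since the others narrow a rule that already found 0 members. The share of members was 0.318% in the control and 0.4% at 1 day. It was 0.21% and 0.204% with no minimum of genes, 0.00963% and 0.0216% with 3 vessel genes, 0.077% and 0.0973% with Cldn5 required and 0.154% and 0.238% without barcodes of leukocyte gate genes. At 1 day it was also 0.681% with 300 genes, 0.173% without Stab2 or Clec4g and 0.805% with at most 20% mitochondrial UMIs. When the rule was applied after thinning each barcode to 300 UMIs, chosen after seeing the data, it was 0.0491% and 0.067%.

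Genes at least 2-fold apart between 1 day and control numbered 148. They numbered 2 with 3 vessel genes, 59 with Cldn5 required, 80 without Stab2 or Clec4g, 33 without leukocyte gate genes, 499 and 36 at minimums of 10 and 50 UMIs, 22 after thinning and 92 in members with Rspo3, chosen after seeing the data. The share of these that was higher went from 50.7% to 71.7% in the last setting, to 72.7% without leukocyte gate genes, to 63.6% after thinning, to 39% with Cldn5 required and to 38.8% without Stab2 or Clec4g. Against sinusoidal cells of the control, 872 genes became 286 with 3 vessel genes, 567 with at most 20% mitochondrial UMIs, 1411 and 236 at 10 and 50 UMIs and 272 after thinning. Of the control genes 41.1% were higher, which became 74.2% with Cldn5 required, 73% without leukocyte gate genes, 60.8% at 10 UMIs and 60.1% in members with Rspo3, and at 1 day 51.2% became 84.8%, 77.8%, 65.3% and 57.2%. At 1 day, 1184 became 542 at 50 UMIs and 446 after thinning. Most of these settings change, by construction, how many cells or genes are compared.

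Directions reversed, as log2 ratios of 1 day over control, for mt-Rnr1 (0.05, Cldn5 required), platelet genes (0.04, Stab2 or Clec4g out), Ctla2a (0.39) and T and NK genes (1.71, both without leukocyte gate genes), and, after thinning, Fcna (-0.17), T and NK genes (0.15) and stellate genes (0.83). In members with Rspo3 they reversed for Mgp (1.16), Ctla2a (0.10), Cd34 (0.43) and T and NK genes (0.01). Against control sinusoidal cells they reversed for Rspo3 (-0.19, Cldn5 required), Cldn5 (-0.51, members with Rspo3), T and NK genes (-2.03 without leukocyte gate genes, -0.59 in members with Rspo3) and stellate genes (-1.10, thinned). At 1 day they reversed for Gm4980 (0.81, 3 vessel genes), for Apoa1 (0.05), venous genes (-0.18), coagulation genes (-0.40) and mesothelial genes (-0.22) with Cldn5 required, for Apoa1 (0.11) and Ttr (0.16) without shared barcode sequences, and for Mup10 (0.05) and lymphatic genes (0.05) after thinning. The cause was not tested.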

Other observations

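Among members with Rspo3, whose choice followed the data, some gene groups stood higher 1 day p.i. than over all members. Low-oxygen and glycolysis genes had 13 UMIs in the control and 65 at 1 day (0.0729% and 0.163% of UMIs, ratio 2.24, 95% counting interval 1.22 to 4.43), against a ratio of 1.06 over all members. These UMIs were spread over several genes: Gapdh had 1 and 12 UMIs, Aldoa 3 and 12 and Eno1 1 and 6. Lipid uptake and transport genes stood at a ratio of 1.94 (1.61 to 2.35), and at 1.38 (1.06 to 1.82) without Apoe, which had 64 and 371 UMIs, while metallothionein and antioxidant genes stood at 1.27 (1.01 to 1.61). Macrophage genes stood at 2.4 (1.72 to 3.42) and mitochondrial transcripts at 19.7% and 12.5% of UMIs in the same cells, and their part in these ratios was not tested.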
